A study of Homo sapiens with 24 samples.

Results

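The response of cells of the empty-vector line pcDNA to fetal bovine serum (FBS), given back after serum starvation, was measured on 6 of the 24 arrays of the study. These were the 2 arrays titled as FBS-treated pcDNA cells and the 4 arrays titled as pcDNA controls, which were starved only. Both lines of the study are A2780, an established human ovarian cancer cell line, transfected either with the empty plasmid pcDNA or with Rab25, a small GTPase of the recycling endosome. Cells of each line were grown with 5% serum, starved of serum for 8 h, and then left starved or given EGF at 10 ng/ml, IGF at 10 ng/ml, TGF beta at 5 ng/ml or FBS at 5%, and RNA was measured on Affymetrix HT-HG_U133A Early Access arrays. Every treatment was run in 2 experiments, with 2 starved arrays and 1 array per addition in each experiment and line. The time under FBS is given in conflicting ways: the treatment protocol states 8 h for experiment 1 and 24 h for experiment 2, but by the source names it was 24 h in both. How long the starved controls were kept before harvest is not stated beyond the 8 h. Each line is 1 transfected line. The submitters call the 24 samples independent, but nothing names separate cultures, so the p-values measure the spread between these samples, which may be partly technical.

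Serum is a mixture of growth factors, hormones, lipids, attachment proteins and bone morphogenetic proteins (BMPs), and giving it back to starved cells is a classical way to make them grow and divide. BMP receptors act through SMAD transcription factors whose best known direct targets are the ID genes, which encode proteins that bind and inactivate helix-loop-helix transcription factors. Cells short of amino acids, or under stress of the endoplasmic reticulum or of oxidation, make more of the transcription factor ATF4, which switches on amino acid transporters, amino acid synthesis enzymes, tRNA synthetases and the stress factors CHOP (DDIT3), ATF3 and TRIB3. Serum growth factors also act through AKT, which keeps FOXO transcription factors out of the nucleus, and through ERK, whose activity is held back by its own targets of the DUSP, SPRY and SPRED families.

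The median log2 signals of the 6 arrays lay between 7.21 and 7.35, and the difference between the 3′ and 5′ actin probe sets, a measure of RNA degradation, lay between 0.82 and 1.17 on the starved arrays and was 0.74 on both FBS arrays. Both FBS arrays thus lay below all starved arrays in this measure, and its part in the results was not tested. On all 24 arrays, 114 control probe sets designed for rodent genes had a median signal of 5.36 and a 95th percentile of 6.72, which serves here as the level of no specific signal. RAB25 lay between 4.90 and 5.60 on the 12 pcDNA arrays and between 8.18 and 9.08 on the 12 Rab25 arrays, as labelled. Of 12 epithelial markers 4 lay above that 95th percentile on all 6 arrays: KRT8, KRT18, KRT7 and PAX8, which read between 11.37 and 14.16. The other 8 did not, among them EPCAM and CDH1, which read between 5.08 and 5.59. All 7 mesenchymal markers lay above it, with means between 11.43 and 11.63, and 3 of them passed between the groups: the transcription factor genes SNAI2 (0.66) and TWIST1 (0.58) rose and ZEB2 (−0.75) fell with FBS. The mean signal of 10 fibroblast markers lay between 6.70 and 7.12 on the starved arrays and between 6.85 and 6.92 on the FBS arrays, and none of the markers of epithelium, fibroblasts, leukocytes, red cells, endothelium, adipocytes, breast or liver passed the test between the groups.

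FBS raised the BMP target gene ID1 by 10.6-fold and ID3, whose starved signal was not above the level of the rodent controls, by at least 4.21-fold, and lowered a large set of amino acid stress genes, led by the cystine transporter gene SLC7A11. Differences are given on the log2 scale, FBS minus starved, so that a negative value is a lower signal with FBS. Of 11884 genes tested with limma, 811 (6.82%) differed between FBS and starved pcDNA cells at an adjusted p under 0.05, which is what "passed", "rose" and "fell" mean here. Of these, 277 rose (2.33%) and 534 fell (4.49%), and 14 rose and 46 fell by at least 2-fold. In 27 of the 811 genes all 6 arrays lay under the 95th percentile of the rodent controls. When each array was centred on its median, 410 genes rose and 402 fell, and after quantile normalization 448 rose and 504 fell, so the excess of falls depended on the scaling. The count rests on few arrays: it was 56 without the FBS array of experiment 1, 2085 without the FBS array of experiment 2, 522 and 464 without either starved array of experiment 1, 61 without the experiment as a block and 85 with only the 6 arrays in the fit. The spread is estimated from all 24 arrays, among them the 2 Rab25 FBS arrays that stand apart (described with the Rab25 line); without those 2 arrays 1247 genes passed, the 811 among them.

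The 2 experiments differed in the size of the response. Taken alone, in a fit with a mean for each group in each experiment, experiment 1 gave 3536 genes past the threshold (29.8%), 1580 higher (13.3%) and 1956 lower (16.5%), and experiment 2 gave 492 (4.14%), 216 higher (1.82%) and 276 lower (2.32%). In these fits the lone FBS array of an experiment is assumed to vary like the pairs of starved arrays. Over all genes the standard deviation of the log2 difference was 0.45 in experiment 1 and 0.24 in experiment 2, against 0.16 and 0.14 for the difference between the 2 starved arrays of each experiment. Across genes, which are not independent replicates, the log2 differences of the 2 experiments correlated at r = 0.19. Of 296 genes past the threshold in both experiments, 72 were higher in both, 143 lower in both and 81 moved in opposite directions. The difference between the experiments itself passed the test for 2074 genes (17.5%), with 1169 more positive in experiment 2 (9.84%) and 905 less positive (7.62%). The experiments differ in the exposure time that the protocol states and in everything else that changed between them, and these cannot be told apart.

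ID1 and ID3 were the genes that rose most. Values on the starved arrays are given in the order of experiment 1, with its 2 arrays, and experiment 2, with its 2 arrays. ID1 read 7.69, 7.56, 7.99 and 7.70 on the starved arrays and 10.32 and 11.96 on the FBS arrays of experiments 1 and 2. Both FBS arrays stood far above all starved arrays, and the array of experiment 2 was the higher of them. The difference was 3.40 on the log2 scale (SE 0.28), a 10.6-fold rise (adjusted p = 1.13e-05), with 2.69 in experiment 1 and 4.12 in experiment 2. ID3 read 6.14, 5.85, 5.55 and 5.61 when starved, all under the 95th percentile of the rodent controls, and 7.75 and 9.83 with FBS. Its groups did not overlap either, and the fitted difference was 3.002 (SE 0.42, adjusted p = 0.000877), with 1.76 in experiment 1 and 4.25 in experiment 2. Since the starved level of ID3 is only bounded, these are not exact sizes: with the starved values raised to that percentile, the difference was 2.07, a rise of at least 4.21-fold, with 1.03 and 3.11 in the experiments. For both genes the rise was larger in experiment 2, by 1.43 (SE 0.18, adjusted p = 0.00152) for ID1 and by 2.49 (SE 0.26, adjusted p = 0.000721) for ID3, or 2.08 with the raised values, whereas 21 of 24 leading genes, the 12 largest rises and the 12 largest falls among the genes that passed, moved further in experiment 1. ID1 passed under all 19 alternative settings run, and ID3 under 17 of 18, the exception being the fit with only the 6 arrays.

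**Figure D1:**
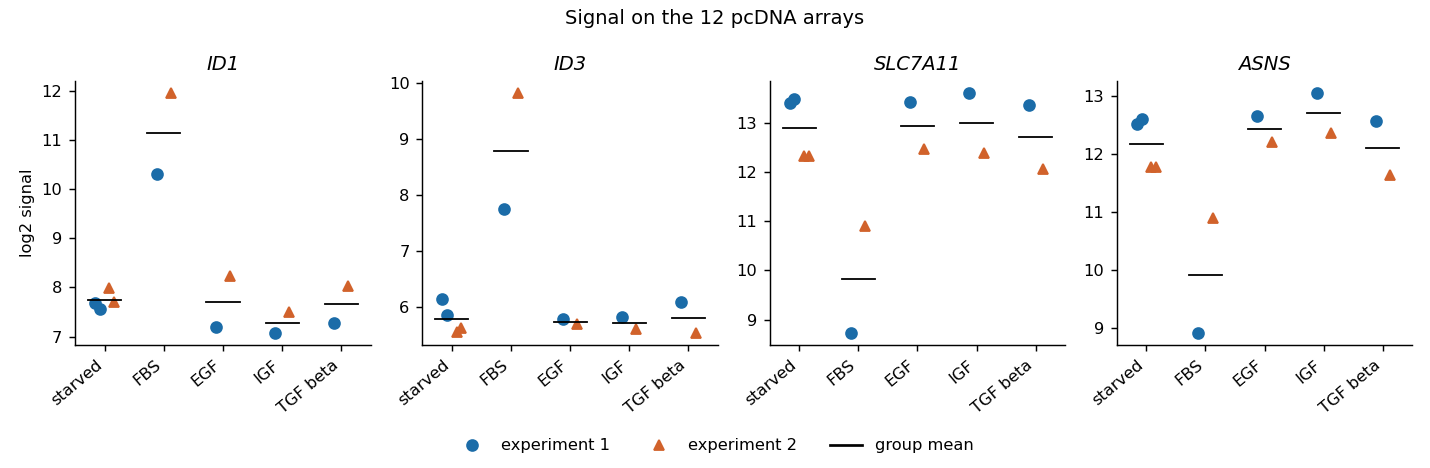
Log2 signal of ID1, ID3, SLC7A11 and ASNS on the 12 pcDNA arrays, by treatment; circles are arrays of experiment 1, triangles are arrays of experiment 2, and the line is the group mean. Both FBS arrays lie above all 10 others for ID1 and ID3 and below all 10 others for SLC7A11 and ASNS.

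The other members of the list of BMP signalling and ID genes did not follow. Of 21 measured, 2 rose (ID1 and ID3) and 1 fell, the Notch and BMP target HEY1 (−0.60, SE 0.10, adjusted p = 0.00383), and the median difference of the list was −0.03, against −0.01 over all genes. ID2 read 6.43, 7.07, 5.35 and 5.35 when starved and 5.37 and 5.66 with FBS, so that only the starved arrays of experiment 1 stood above the rest. ID4 lay between 5.07 and 5.24 on all 6 arrays, at the level of the rodent controls, as did SMAD6, an inhibitory SMAD, between 5.39 and 5.53. BAMBI, a decoy receptor for this family of ligands, was lower with FBS in experiment 1 (−1.44) and higher in experiment 2 (1.08), and the BMP antagonist GREM1 likewise differed by −1.39 and 0.57. These opposite differences passed the test within each experiment and between the experiments (adjusted p = 0.000515 for BAMBI and 0.000483 for GREM1), and neither gene passed over both experiments together.

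FBS lowered 25 of 32 measured genes of the ATF4 and amino acid response list and raised 1, ALDH18A1, an enzyme of proline synthesis. The median difference of the list was −0.95. SLC7A11, the transport subunit of the cystine and glutamate exchanger, read 13.41, 13.49, 12.33 and 12.33 when starved and 8.73 and 10.91 with FBS. The groups did not overlap, and in each group the experiments were far apart: the starved arrays of experiment 1 were the highest and the FBS array of experiment 1 the lowest. The difference was −3.07 (SE 0.55, 8.38-fold lower, adjusted p = 0.00429), −4.72 in experiment 1 and −1.42 in experiment 2. The other probe sets of SLC7A11 differed by −3.34 and −1.71. SLC3A2, the heavy chain that partners SLC7A11 and other amino acid transporters at the membrane, read 11.37, 11.59, 10.50 and 10.26 when starved and 8.50 and 9.99 with FBS, a difference of −1.68 (SE 0.40, adjusted p = 0.0196) that did not pass in experiment 2 alone (−0.39, adjusted p = 0.169).

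ASNS, which makes asparagine from aspartate and glutamine, read 12.52, 12.60, 11.78 and 11.79 when starved and 8.93 and 10.90 with FBS. It changed by −2.26 (SE 0.44, 4.79-fold lower, adjusted p = 0.00669), and its 2 groups did not overlap. Among the other biosynthetic enzymes, PSAT1 and PHGDH of the serine pathway changed by −1.24 (adjusted p = 0.0129) and −0.85 (adjusted p = 0.0196), MTHFD2 of mitochondrial folate metabolism by −1.06 (adjusted p = 0.00353) and CBS of cysteine synthesis by −0.87 (adjusted p = 0.0164). Of the transporters, SLC1A4, which carries neutral amino acids, changed by −1.45 (adjusted p = 0.00752), SLC38A2, a glutamine and alanine carrier, by −1.02 (adjusted p = 0.00151), and SLC7A5, the large neutral amino acid carrier, by −0.78 (adjusted p = 0.0199). SLC38A2 went against the order of the list: its difference was −0.71 in experiment 1 and −1.33 in experiment 2, and the experiments differed (adjusted p = 0.0318).

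The stress factors of the list fell with the enzymes and carriers. ATF3, a stress-induced transcription factor, read 11.57, 11.65, 9.65 and 9.84 when starved and 7.03 and 8.76 with FBS. Its difference of −2.78 (SE 0.49, 6.89-fold lower, adjusted p = 0.00373) was −4.58 in experiment 1 and −0.99 in experiment 2, and the experiments differed by 3.59 (SE 0.16). CHAC1, an enzyme that degrades glutathione, was more even: it read 9.25, 9.28, 9.29 and 9.38 when starved and 6.64 and 7.57 with FBS, a difference of −2.20 (SE 0.24, adjusted p = 0.00028). TRIB3, a pseudokinase that restrains ATF4 and AKT, changed by −1.98 (adjusted p = 0.0131), DDIT4, which restrains mTORC1 signalling, by −1.83 (adjusted p = 0.00462), and STC2, a secreted glycoprotein, by −1.66 (adjusted p = 0.000615). NUPR1, a small stress-induced nuclear protein, changed by −1.65 (adjusted p = 0.0176), and on the FBS arrays it read 5.40 and 6.58, under the 95th percentile of the rodent controls; raised to that percentile, the difference was −0.92. DDIT3 changed by −1.90 (adjusted p = 0.0487), but it lost its call under 12 of 19 alternative settings, among them both scalings and the leaving out of any starved array. ATF4 itself, which is regulated to a large part at translation, read between 13.93 and 14.11 when starved and 13.04 and 13.59 with FBS, a difference of −0.74 (SE 0.12, adjusted p = 0.00158).

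CHAC1, STC2 and ID1 were the 3 of the 24 leading genes that passed under every alternative run. Without the FBS array of experiment 1, 18 of the 24 no longer passed, SLC7A11, ASNS and ATF3 among them, although the direction was kept. PPP1R15A, which reverses the translational block upstream of ATF4, and AADAC, an esterase of the endoplasmic reticulum, complete the 12 largest falls, with −1.55 (SE 0.25, adjusted p = 0.00198) and −1.54 (SE 0.26, adjusted p = 0.00288). AADAC belongs to none of the lists.

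**Figure D2:**
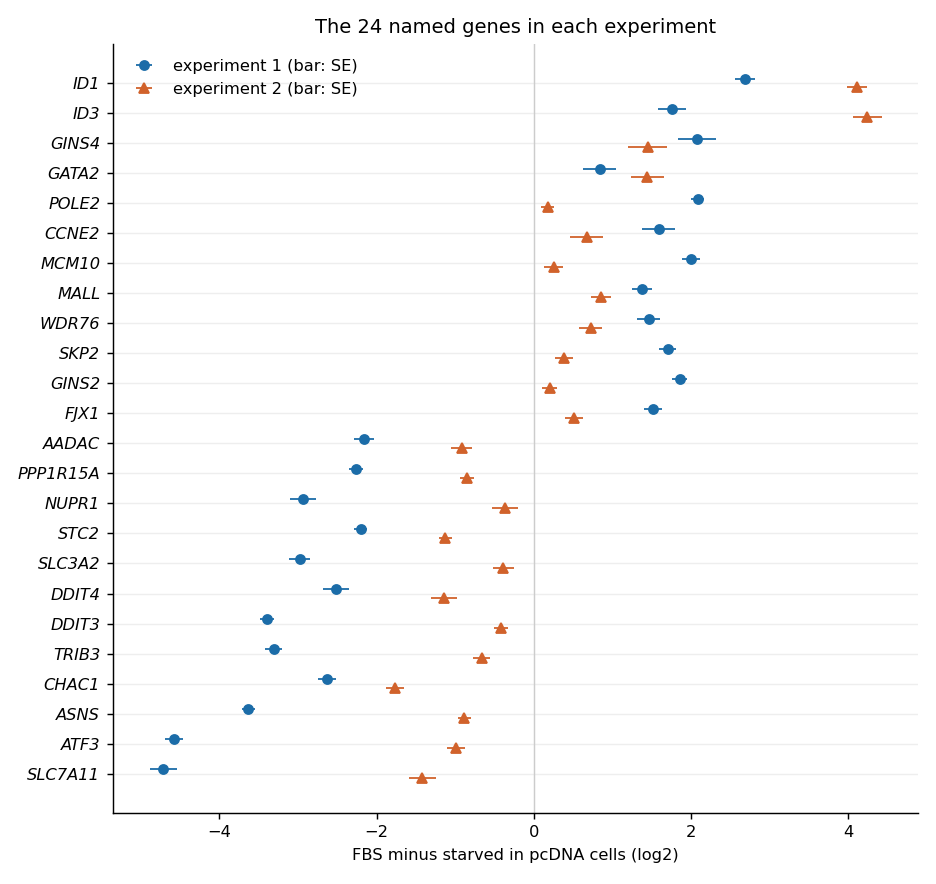
FBS minus starved (log2) in experiment 1 (circles) and experiment 2 (triangles) for the 4 marker genes and the other genes among the 12 largest rises and 12 largest falls; bars are standard errors from limma. All 24 genes lie on the same side of 0 in both experiments; ID1, ID3 and GATA2 moved further in experiment 2, and the other 21 moved further in experiment 1.

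In experiment 1 alone 28 of the 32 measured ATF4-list genes fell and 1 rose, with a median of −1.42, and in experiment 2 alone 12 fell and none rose, with a median of −0.42. The median log2 signal of the list was 11.67 in the starved cells and 9.18 in the FBS cells of experiment 1, and 10.70 and 10.44 in those of experiment 2. The 2 FBS conditions and the 2 starved conditions were thus both far apart, and 23 genes of the list had a response that was less negative in experiment 2 and 1 (SLC38A2) a response that was more so.

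ATF4 binds with C/EBP proteins at a composite element, searched for here as TGATGNAA on both strands in the RefSeq promoter windows (GRCh38.p14, 250 bases before to 50 after the start site). It was found in 3.67% of 27305 promoters and in 2.23% of 9593 promoters of measured genes, in 6 of 26 promoters of the ATF4 list (23.1%) and in 6 of 16 promoters of the cytosolic aminoacyl-tRNA synthetases (37.5%). Many of the list genes are known as ATF4 targets, so these shares describe the lists and are no separate evidence. The following stretches, 5′ to 3′ on the gene's strand, are shown because they hold a match, in capitals, in the promoters of genes that fell. They come from chr7:97872443-97872502 (minus strand), chr1:212565190-212565249 (plus), chr15:40953236-40953295 (plus) and chr9:92293698-92293736 (minus), with the first base of the match at −68, −191, −209 and −13 from the start site.
ASNS: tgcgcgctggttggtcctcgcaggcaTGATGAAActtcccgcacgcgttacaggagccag
ATF3: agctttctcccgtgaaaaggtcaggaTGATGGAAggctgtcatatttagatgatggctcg
CHAC1: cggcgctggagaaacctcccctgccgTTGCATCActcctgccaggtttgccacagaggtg
IARS1: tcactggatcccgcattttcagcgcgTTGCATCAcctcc
The matches in CHAC1 and IARS1 read the element on the opposite strand. A match of these letters is not a shown binding site. The GC-rich element GGCGCC, bound by SMADs at BMP targets, was not found in the windows of ID1 and ID3, which says only that these letters are not in those windows.

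Of 19 measured cytosolic aminoacyl-tRNA synthetases, which charge tRNAs with amino acids, 9 fell and none rose, with a median of −0.34. CARS1, the enzyme for cysteine, read 13.71, 13.72, 13.58 and 13.54 when starved and 12.997 and 13.13 with FBS, a difference of −0.57 (SE 0.09, adjusted p = 0.00151). The groups did not overlap, and the fall passed in each experiment, by −0.72 and −0.43. GARS1 (glycine) changed by −0.77 (adjusted p = 0.00642), SARS1 (serine) by −0.70 (adjusted p = 0.0147) and IARS1 (isoleucine) by −0.40. WARS1 (tryptophan) had a larger difference of −1.38 that did not pass (adjusted p = 0.0548), and was −2.64 in experiment 1 and −0.12 in experiment 2. In experiment 2 alone CARS1 was the only synthetase past the threshold.

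Below ID1 and ID3, 10 genes complete the 12 largest rises, most of them with known roles in DNA replication, the cell cycle or transcription. GINS4, a subunit of the replicative helicase, read 7.10, 6.93, 7.08 and 7.08 when starved and 9.09 and 8.53 with FBS. It rose by 1.76 (SE 0.36, 3.40-fold, adjusted p = 0.00837), 2.08 in experiment 1 and 1.45 in experiment 2. The transcription factor GATA2 read 7.01, 7.28, 5.97 and 6.46 when starved and 7.99 and 7.66 with FBS, a rise of 1.14 (SE 0.19, adjusted p = 0.00315); 2 further probe sets of GATA2, with mean signals of 5.70 and 5.50, differed by 0.09 and −0.13. MALL, a membrane raft protein, read 7.62, 7.42, 7.96 and 7.95 when starved and 8.90 and 8.81 with FBS, a rise of 1.12 (SE 0.15, adjusted p = 0.000612). None of these 3 genes had overlapping groups, and all 3 passed in each experiment alone.

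CCNE2, a cyclin that drives entry into S phase, read 6.43, 6.71, 8.47 and 8.42 when starved and 8.16 and 9.11 with FBS. Its groups overlapped, because the starved arrays of experiment 2 were as high as the FBS array of experiment 1, and its rise of 1.13 (SE 0.26, adjusted p = 0.0147) stands only within the experiments. MCM10 and GINS2, which act at the replicative helicase, overlapped in the same way and rose by 1.13 (adjusted p = 0.0217) and 1.03 (adjusted p = 0.0262). POLE2, a subunit of the leading-strand polymerase, read 7.40, 7.35, 8.89 and 8.84 when starved and 9.46 and 9.04 with FBS, a rise of 1.13 (SE 0.30, adjusted p = 0.0317) that was 2.09 in experiment 1 and 0.18 in experiment 2. SKP2, which targets the CDK inhibitor p27 for destruction, rose by 1.04 (adjusted p = 0.0223), WDR76, a DNA-binding repeat protein, by 1.09 (adjusted p = 0.0161) and FJX1, a secreted Golgi protein, by 1.02 (adjusted p = 0.0167). In experiment 2 alone POLE2, CCNE2, MCM10, SKP2 and GINS2 did not pass, and each of these but CCNE2 also lost its call when either starved array of experiment 1 was left out.

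Of 43 measured genes of G1/S and DNA replication, 10 rose and none fell, with a median of 0.55. In experiment 1 alone 41 of 43 rose with a median of 1.10, and in experiment 2 alone 2 rose with a median of 0.10. The 39 genes of G2/M and mitosis split more sharply: 38 rose in experiment 1 (median 0.98), none rose and 8 fell in experiment 2 (median −0.14), and none passed over both experiments together. The difference between the experiments was negative, that is less positive in experiment 2, and passed for 34 G1/S genes and for 37 G2/M genes, against 7.62% of all genes. The replication licensing gene CDC6 was the 1 gene of these lists that passed the other way (0.76). BUB1, a kinase of the spindle checkpoint, read 9.45, 9.57, 10.46 and 10.75 when starved and 11.13 and 10.47 with FBS. Only the starved arrays of experiment 1 were low, and the same order was seen in the medians: the G2/M list had a median log2 signal of 10.56 in starved and 11.68 in FBS cells of experiment 1, and of 11.63 and 11.43 in experiment 2. The G1/S list likewise stood at 9.09 and 10.07 in experiment 1 and at 10.26 and 10.39 in experiment 2. Why the starved cells of the 2 experiments differed was not tested.

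Of 15 measured D-type cyclins, CDKs and CDK inhibitors, 1 rose (CCND3) and 1 fell (CDKN1B), against 2.33% and 4.49% of all genes. In experiment 1 alone 5 rose and 2 fell, against 13.3% and 16.5% of all genes. In experiment 2 alone 1 rose and 1 fell, against 1.82% and 2.32%. CCND3 and CDKN1B, with CCNE1 and CDC25A of the G1/S list, were picked after their values were seen, as genes past the threshold in each experiment. CCNE1, the other E-type cyclin, lay between 7.87 and 7.96 on the starved arrays and at 8.68 and 8.70 on the FBS arrays, a rise of 0.77 (SE 0.14, adjusted p = 0.00405). CCND3, a D-type cyclin, lay between 9.24 and 9.46 and at 9.95 and 10.00, a rise of 0.63 (SE 0.08, adjusted p = 0.000545). The phosphatase CDC25A, which activates CDK2, rose by 0.92 (SE 0.13, adjusted p = 0.000947), 1.10 in experiment 1 and 0.74 in experiment 2. CDKN1B, which encodes the CDK inhibitor p27, changed by −0.84 (SE 0.15, adjusted p = 0.00403), −0.95 in experiment 1 and −0.73 in experiment 2. For none of these 4 genes did the difference between the experiments pass (adjusted p from 0.148 to 0.946). The way they were picked favours this, so it says nothing about the other genes of these lists. CCND1 differed by −0.05 and 0.31 in the experiments and did not pass.

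The 2 lists of lipid and endoplasmic reticulum genes moved in experiment 1 and hardly in experiment 2. Of 21 measured genes of cholesterol synthesis and uptake, 18 fell in experiment 1 (median −1.13), whereas in experiment 2 1 fell and 1 rose (median 0.21), and 17 had a response that differed between the experiments. HMGCS1, which commits acetyl units to sterol synthesis, read 11.04, 11.10, 11.61 and 11.51 when starved and 8.32 and 12.03 with FBS. The FBS array of experiment 1 was thus the lowest of the 6 and that of experiment 2 the highest, with differences of −2.75 and 0.46 and a difference between them of 3.22 (SE 0.19, adjusted p = 8.63e-05). IDI1, CYP51A1 and INSIG1 followed, with −2.19, −2.31 and −1.94 in experiment 1 and 0.20, −0.02 and 0.21 in experiment 2. INSIG2, which retains the sterol sensor in the endoplasmic reticulum, was the 1 gene of the list to pass over both experiments (−0.55, SE 0.13, adjusted p = 0.0165).

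Of 21 measured genes of the unfolded protein response, 19 fell in experiment 1 (median −0.87), 1 fell and 2 rose in experiment 2 (median 0.10), and 2 fell over both together. These 2 were XBP1, a transcription factor of this response (−0.76, SE 0.14, adjusted p = 0.0053), and HERPUD1, a component of protein degradation at the endoplasmic reticulum (−1.14, SE 0.31, adjusted p = 0.0386), which lost its call under 10 of 19 settings. DNAJB9, a chaperone, read 12.41, 12.57, 10.62 and 10.64 when starved and 9.37 and 10.58 with FBS. Its starved arrays of experiment 1 were high and its FBS array of experiment 1 low, with a difference of −3.12 in experiment 1 and −0.05 in experiment 2. Its list had a median log2 signal of 12.69 in starved and 11.39 in FBS cells of experiment 1, and of 11.62 and 11.88 in experiment 2.

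**Figure D3:**
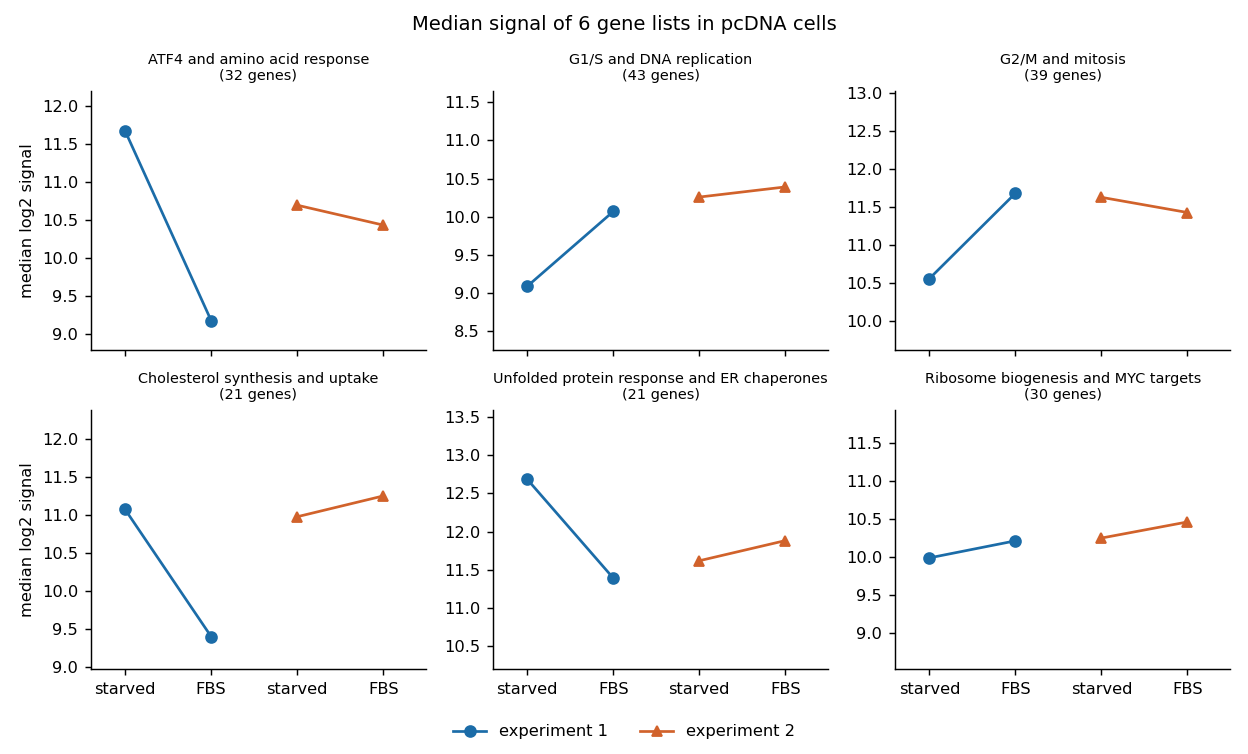
Median log2 signal of 6 gene lists in starved and FBS pcDNA cells of experiment 1 (circles) and experiment 2 (triangles); every panel spans the same range of log2 units. The ATF4, cholesterol and unfolded protein lists fall steeply in experiment 1 only, the G1/S and G2/M lists rise steeply in experiment 1 only, and the median of the ribosome biogenesis list is a little higher with FBS in both.

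Of 33 measured genes of growth factor withdrawal, which FOXO factors and related regulators switch on, 10 fell and none rose, with a median of −0.22; in experiment 1 alone 16 fell and 4 rose, and in experiment 2 alone 9 fell and 2 rose. Of all genes 4.49% fell and 2.33% rose, with 16.5% and 13.3% in experiment 1 and 2.32% and 1.82% in experiment 2. The experiments differed for 11 of the 33, with 3 more positive in experiment 2 and 8 less, against 17.5% of all genes. CITED2, a transcriptional co-regulator, read 11.92, 11.97, 11.76 and 11.77 when starved and 10.95 and 10.71 with FBS. Its groups did not overlap, and its difference of −1.02 (SE 0.10, adjusted p = 0.000103) was −0.996 and −1.05 in the experiments. PIK3IP1, an inhibitor of PI3 kinase, changed by −0.86 (SE 0.12, adjusted p = 0.000778), PNRC1, a repressor of ribosomal RNA synthesis, by −0.97 (SE 0.16, adjusted p = 0.00277) and FOXO3 itself by −0.50 (SE 0.08, adjusted p = 0.00224). IRS2, an adaptor of the insulin receptor, and CCNG2, an atypical cyclin of quiescent cells, changed by −0.84 (adjusted p = 0.00636) and −1.24 (adjusted p = 0.0423), and both fell further in experiment 2, with −1.14 against −0.55 (adjusted p of the difference 0.0111) and −1.58 against −0.91 (adjusted p = 0.022).

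Of 30 measured genes of ribosome biogenesis, 10 rose and none fell, with a median of 0.27. In experiment 1 alone 9 rose and 1 fell, with a median of 0.16 and 11 of 30 genes below 0, and in experiment 2 alone 8 rose and none fell, with a median of 0.27 and 1 gene below 0. Of all genes 2.33% rose and 4.49% fell, with 13.3% and 16.5% in experiment 1 and 1.82% and 2.32% in experiment 2. The experiments differed for 11 of the 30, with 7 more positive in experiment 2 and 4 less, against 17.5% of all genes. NOP56, a core protein of small nucleolar particles, rose by 0.54 (SE 0.10, adjusted p = 0.00609), with 0.55 and 0.53 in the experiments. NOP2 and RRS1, which act in assembly of the large subunit, rose by 0.50 (adjusted p = 0.0419) and 0.67 (adjusted p = 0.0298) and were higher mainly in experiment 2, with 0.85 and 0.92. MYC, the best known activator of this group, lay between 12.91 and 13.23 on all 6 arrays and differed by 0.02.

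The immediate-early genes and the feedback genes of ERK, which respond to serum within an hour, were not raised as groups at these times. Of 24 immediate-early genes 2 rose and 5 fell, against 2.33% and 4.49% of all genes. In experiment 1 alone 3 rose and 11 fell, against 13.3% and 16.5% of all genes. In experiment 2 alone 2 rose and 3 fell, against 1.82% and 2.32%. FOS and EGR1 lay between 6.27 and 6.86 and between 5.34 and 6.07 on the 6 arrays and did not pass. JUN rose by 0.49 (SE 0.09, adjusted p = 0.00609) and KLF10 by 0.49 (SE 0.14, adjusted p = 0.0468), the latter losing its call under 12 of 19 alternative settings, among them the leaving out of any of the 6 arrays, whereas MAFF changed by −0.85 (SE 0.11, adjusted p = 0.000698) and KLF4 by −1.08 (SE 0.19, adjusted p = 0.00401). Of 22 ERK feedback genes 6 fell and 1 rose: the phosphatases DUSP5, DUSP6 and DUSP1 changed by −1.41 (adjusted p = 0.0347), −0.53 (adjusted p = 0.0196) and −0.55 (adjusted p = 0.0328; lost under 10 of 19 settings), and DUSP7 rose by 0.73 (adjusted p = 0.0485). Of the ERK feedback genes 8 fell and none rose in experiment 1 alone, and 5 fell and 2 rose in experiment 2 alone. None of 27 targets of SRF and YAP passed over both experiments. Of these targets 6 rose and 1 fell in experiment 1 alone, and 1 rose and none fell in experiment 2 alone. In experiments 1 and 2 apart, 19 and 15 of the 27 were above 0, with medians of 0.07 and 0.001. The medians were −0.28 and −0.06 for the immediate-early genes and −0.29 and −0.20 for the ERK feedback genes.

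Of 29 measured NF-kB targets 4 fell and none rose, against 4.49% and 2.33% of all genes. In experiment 1 alone 15 fell and 1 rose, against 16.5% and 13.3% of all genes, with a median of −0.41. In experiment 2 alone 3 fell and 1 rose, against 2.32% and 1.82%, with a median of −0.06. CXCL8, the chemokine interleukin-8, read 13.14, 13.16, 12.01 and 11.83 when starved and 11.47 and 11.42 with FBS, a difference of −1.09 (SE 0.22, adjusted p = 0.00921). CXCL2 changed by −1.45 (adjusted p = 0.0131). IL6 differed by −3.14 in experiment 1 and 0.03 in experiment 2 and did not pass over both (adjusted p = 0.0764). Among 22 p53 targets 3 fell and none rose, led by the stress cytokine GDF15, which read 13.91, 13.96, 11.75 and 11.73 when starved and 11.57 and 11.11 with FBS (−1.50, SE 0.28, adjusted p = 0.00602).

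The zinc exporter SLC30A1 showed the reverse of the common order. It read 8.64, 8.84, 11.81 and 11.95 when starved and 8.79 and 9.15 with FBS, so that only the starved arrays of experiment 2 were high. The difference was 0.05 in experiment 1 and −2.73 in experiment 2, and the experiments differed (adjusted p = 0.000818). The metallothionein MT1E, which binds zinc, was lower with FBS in both (−0.54 and −0.95) and just missed the threshold over both together (adjusted p = 0.0506). None of 12 measured genes of this list passed there. In experiment 1 alone 8 of the 12 fell and none rose, against 16.5% and 13.3% of all genes. In experiment 2 alone 3 fell and none rose, against 2.32% and 1.82%. In lists described less fully here, 1 rose and 3 fell of 21 NRF2 antioxidant genes, and 1 rose and 3 fell of 33 hypoxia and glycolysis genes. Of 26 direct TGF beta targets 1 rose and 2 fell, and of 43 matrix genes none rose and 1 fell. Of 29 respiratory chain subunits 3 rose and none fell, and none passed of 21 WNT genes. Over all genes 2.33% rose and 4.49% fell. Several of these lists moved mainly in experiment 1. The medians in experiments 1 and 2 were 0.28 and −0.04 for the matrix genes and −0.39 and 0.04 for the NRF2 genes. They were 0.21 and 0.02 for the respiratory chain subunits, and −0.02 and 0.003 over all genes. The experiments differed for 19 matrix genes, 18 of them less positive in experiment 2, for 13 NRF2 genes, all more positive, and for 2 respiratory chain subunits, both less positive. Over all genes 9.84% were more positive and 7.62% less positive.

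FBS was set directly against each single growth factor in pcDNA cells, a difference of means into which no starved array enters. Between FBS and EGF 192 genes differed (1.62%), 33 higher with FBS (0.278%) and 159 lower (1.34%); after median centring 47 were higher and 123 lower. Between FBS and IGF 225 differed (1.89%), 50 higher (0.421%) and 175 lower (1.47%), and between FBS and TGF beta 159 differed (1.34%), 66 higher (0.555%) and 93 lower (0.783%). With 2 arrays a group these counts are fragile: leaving out 1 array at a time gave 2 to 1525 for EGF, 11 to 1826 for IGF and 11 to 1280 for TGF beta, with the highest number in each case without the FBS array of experiment 2, and no gene passed when only the arrays compared were fitted.

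Of the genes that differed from all 3 factors, 18 were higher with FBS (0.151%) and 51 lower (0.429%). The 18 included ID1, which was 3.43, 3.85 and 3.48 above the EGF, IGF and TGF beta arrays (adjusted p from 7.57e-06 to 7.04e-05), and ID3, which was 3.06, 3.08 and 2.98 above them (adjusted p from 0.00451 to 0.00733). Against the same starved arrays ID1 differed by −0.03 with EGF, −0.45 with IGF and −0.08 with TGF beta, and ID3 by −0.06, −0.07 and 0.02. GATA2, MALL, CDC25A, CCND3 and the RNA processing factors POP1 and GEMIN4 were also among the 18, as were the developmental transcription factors ISL1, FOXF1 and TWIST1, with values 0.69 to 0.88, 0.75 to 1.38 and 0.79 to 0.88 above the 3 factors. SOCS5 was higher than with each factor and did not pass against the starved cells (0.25, adjusted p = 0.162).

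The 51 lower genes included 13 of the ATF4 list and 3 of the synthetases. CHAC1 differed from the EGF, IGF and TGF beta arrays by −2.90, −3.39 and −2.41 (adjusted p from 7.57e-06 to 0.000484). Set beside the same starved arrays, CHAC1 differed by 0.70 with EGF, 1.20 with IGF and 0.22 with TGF beta, ATF3 by 0.37, 0.77 and 0.46, and ASNS by 0.26, 0.54 and −0.07. Over all 32 genes of the ATF4 list the median difference from starved was 0.17 with EGF, 0.25 with IGF, −0.03 with TGF beta and −0.95 with FBS, and these 4 comparisons share their starved arrays. The FOXO list had medians of −0.22, −0.29, −0.06 and −0.22 in the same order. Of its 33 genes 3 were lower with FBS than with EGF, against 1.34% of all genes. The medians of the 2 cell cycle lists lay between −0.12 and 0.08 with the single factors, against 0.55 and 0.44 with FBS. With FBS they were 1.10 and 0.98 in experiment 1, and 0.10 and −0.14 in experiment 2. Set directly against EGF, IGF and TGF beta, 1, 1 and 2 of the 43 G1/S genes were higher with FBS and none lower. That compares with 0.278%, 0.421% and 0.555% of all genes higher. None of the 39 G2/M genes differed from any factor.

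**Figure D4:**
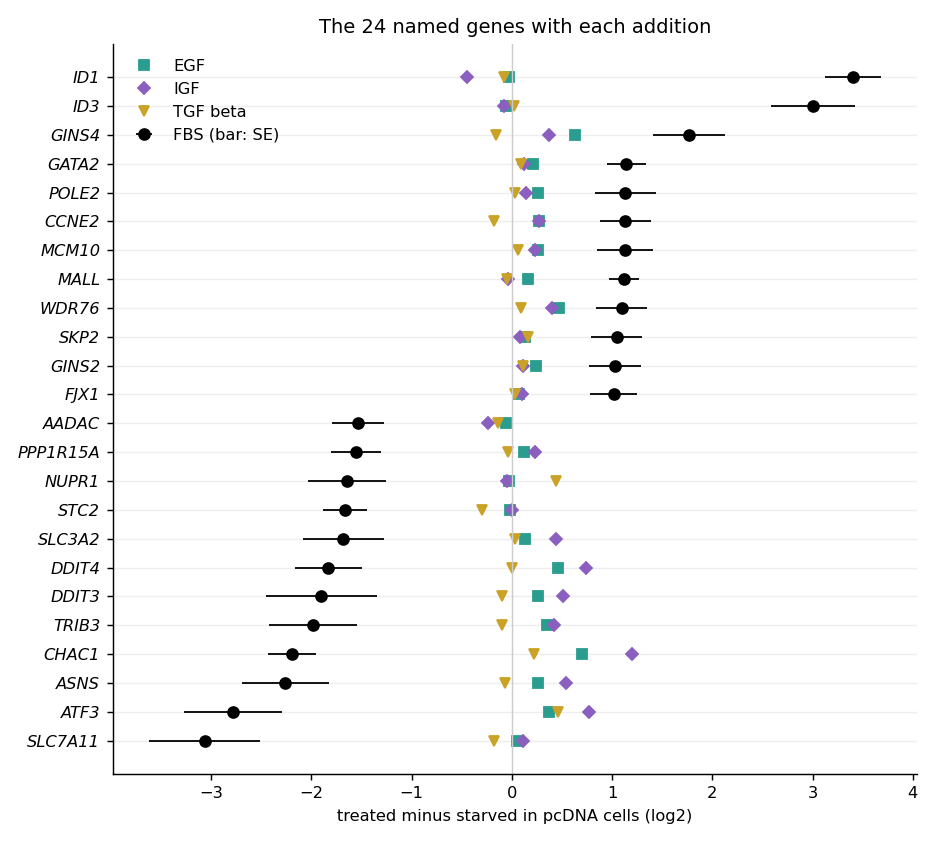
Difference from starved pcDNA cells (log2) with FBS, EGF, IGF and TGF beta for the same 24 genes, 2 arrays an addition against the same 4 starved arrays; bars on the FBS points are standard errors from limma. The FBS points lie outside those of the 3 factors for every gene, and the factors stay between −0.45 and 1.20.

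In the Rab25 line FBS changed 923 genes (7.77%), 315 higher (2.65%) and 608 lower (5.12%). Of the 277 genes that rose in pcDNA cells, 252 were above 0 in Rab25 cells and 84 passed as higher there, and of the 534 that fell, 482 were below 0 and 201 passed as lower; over all genes 4808 were above and 7076 below 0. ID1 differed by 3.19 (2.48 and 3.90 in experiments 1 and 2) and ID3 by 2.49 (1.66 and 3.32), again more in experiment 2. SLC7A11 and ASNS changed by −3.08 and −2.23, and of the 32 ATF4-list genes 21 fell in Rab25 cells and none rose. SLC7A11, ASNS, ID1 and ID3 did not differ between the lines past the threshold, with differences of −0.01 (SE 0.78), 0.03 (SE 0.62), −0.21 (SE 0.39) and −0.52 (SE 0.59).

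The FBS response differed between the lines for 25 genes (0.210%), 17 more positive in Rab25 cells (0.143%) and 8 less positive (0.0673%); after quantile normalization the numbers were 32 and 7, and after median centring 34 and 6. Collagens and other matrix genes of fibroblasts were among the 17, as were the leukocyte marker TYROBP, the red cell marker HBB, the adipocyte marker FABP4 and the breast marker SCGB2A2. HBB lay under the 95th percentile of the rodent controls on all 12 arrays compared between the lines, and TYROBP on 11. With values raised to that percentile, the line differences were 0 for HBB, 0.13 for TYROBP, 2.20 for FABP4 and 1.99 for SCGB2A2. The call of HBB thus shows no red cell signal above that level. Of 6 measured red cell and platelet markers, 2 were above and 4 below 0 with FBS in Rab25 cells (median −0.125). The 2 Rab25 FBS arrays had a mean of 8.56 and 9.86 over the 10 fibroblast markers, against 6.60 to 7.26 on the other 22 arrays, and of 6.41 and 7.50 over 10 breast markers, against 5.72 to 5.97. COL3A1, a fibrillar collagen, read 12.76 and 11.003 on those arrays and 5.13 to 6.60 on the pcDNA arrays compared here, and had a fitted difference of 6.91 (adjusted p = 1.55e-06). COL1A2 (4.65), LUM (4.27) and POSTN (4.15) were also among the 17. Outside the Rab25 FBS arrays these 4 genes lay mostly or wholly under the 95th percentile of the rodent controls, so the sizes are not exact and have no order; with values raised to that percentile they were 5.16, 3.97, 2.31 and 3.03. The part of these markers in other differences between the lines was not tested. Among the 8, GINS4 rose in pcDNA cells and differed by −0.86 in Rab25 cells, a difference of −2.62 (SE 0.51, adjusted p = 0.0428). The nicotinic receptor subunit gene CHRNA5 differed by 0.92 and −0.06 (adjusted p = 0.0133). Both genes had arrays under the 95th percentile of the rodent controls. With values raised to it, the line differences were −2.38 and −0.65, and the pcDNA difference of CHRNA5 was 0.58. NUPR1 and WDR76 were at −0.05 and −0.04 in Rab25 cells, but their differences between the lines did not pass (adjusted p = 0.266 and 0.224). All arrays of NUPR1 but the starved pcDNA arrays lay under that percentile, so its response in Rab25 cells is not known. With values raised to it, the line difference of NUPR1 was 0.92. Without Rab25 FBS array 1 or 2, the count of 25 was 202 or 193.

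**Figure D5:**
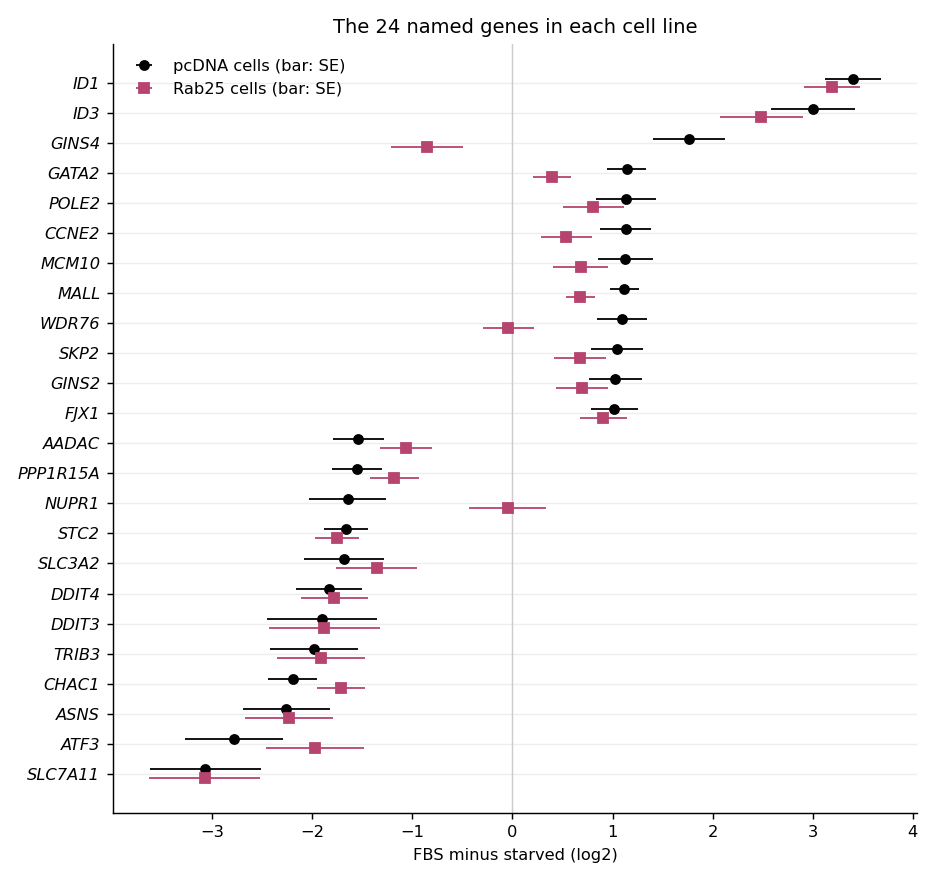
FBS minus starved (log2) in pcDNA cells (circles) and Rab25 cells (squares) for the same 24 genes; bars are standard errors from limma. GINS4 lies on opposite sides of 0 in the lines, and NUPR1 and WDR76 lie near 0 in Rab25 cells. The 2 Rab25 FBS arrays also read high for markers of fibroblasts, breast, leukocytes, adipocytes and epithelium.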

How the data were processed

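RNA of 24 samples was measured on Affymetrix HT-HG_U133A Early Access arrays. The deposited values are log2 signals per probe set, made by the authors; per the submitters' processing notes MAS5 and RMA were used, and which of them made these values is not given in the sources used here. Of 22930 probe sets, 19303 carry 1 gene symbol, 125 several and 2864 none, and 638 control probe sets were left out; 19290 matched a RefSeq gene. Each of 11884 genes is represented by the probe set with its highest mean signal across all 24 arrays.

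The members and gene lists were chosen with earlier results of these data known. The lists (39, with 781 of 874 genes measured) cover processes and cell type markers. The text names ID1, ID3, SLC7A11 and ASNS, the 12 largest rises and the 12 largest falls past the threshold, and up to 4 members of each list with the smallest adjusted p, and up to 4 of the largest differences in each direction of the other comparisons; further list members and genes of the other comparisons were chosen after their values were seen.

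Linear models were fitted with limma 3.58.1 (R 4.3.3; lmFit, then eBayes) to the deposited log2 values, with 10 groups and the experiment as a block. Experiments apart were fitted with a mean for each group in each experiment. P-values were adjusted by the Benjamini-Hochberg method over all genes, with a threshold of 0.05. The experiment is a batch that the labels name, so it pairs the samples; over genes, the deviations of the experiments in FBS and starved pcDNA arrays correlated at r = 0.09. ID3, NUPR1, GINS4, CHRNA5, COL3A1, COL1A2, LUM, POSTN, TYROBP, HBB, FABP4 and SCGB2A2 had arrays under the 95th percentile of the rodent control probe sets. For these genes differences are also given with values raised to it. Other genes with arrays under it, among them GATA2, CCNE2 and CHAC1, are given as fitted only. The fit was also run on simulated arrays with independent noise. For the main comparison the simulated response was the same in both experiments, unlike in these data, so that run does not vouch for the counts given here. The number of arrays limits the precision. Alternatives were no block, 2 scalings, array weights, a trended and robust prior, medians over probe sets in place of the brightest, dropping the lowest 40% of genes, a fold minimum of 2, fewer samples, and leaving out each array. The experiments apart and the omission of both Rab25 FBS arrays were chosen after seeing the data. Promoter sequences are RefSeq's (GRCh38.p14), with a window for 19 of the 24 leading genes.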

Additional observations from a re-analysis of the deposited data

Results flagged for a closer look

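The FBS response of pcDNA cells differed between the experiments for 2074 genes. Among the 24 leading genes it differed for 20, by an adjusted p from limma under the threshold. Experiment 2 minus experiment 1 was 1.43 for ID1 and 2.49 for ID3, which rose further in experiment 2; the starved level of ID3 is only bounded, and the value was 2.08 with it raised to the 95th percentile of the rodent controls. For the genes that fell, a positive value is a smaller fall in experiment 2. This value was 3.30 for SLC7A11, 3.59 for ATF3, 2.98 for DDIT3, 2.75 for ASNS, 2.65 for TRIB3 and 2.59 for SLC3A2. It was smaller for PPP1R15A (1.41), DDIT4 (1.37), AADAC (1.24), STC2 (1.08) and CHAC1 (0.87). For NUPR1, whose FBS arrays lay under that percentile, it was 2.57 as fitted and 1.39 with values raised to it. The genes that rose less in experiment 2 were POLE2 (−1.91), MCM10 (−1.75), GINS2 (−1.65), SKP2 (−1.32), FJX1 (−0.998) and WDR76 (−0.74).

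The FBS response differed between the lines for 25 genes, with GINS4 among them at −2.62, Rab25 minus pcDNA. GINS4 also had a low array among the 4 starved ones, at 6.93 on the second array of experiment 1, whereas the others lay between 7.08 and 7.10. Chance marks about 1 group in 20 in this way.

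Among 2989 probe sets without a single gene symbol, which the comparisons leave out, 44 (1.47%) differed between FBS and starved pcDNA cells, 9 higher and 35 lower.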

How the results depend on the processing

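No leading gene turned its direction under the alternatives run, but 1 sign in both experiments was a condition for being a leading gene. The counts of genes past the threshold depended on how the spread was estimated. For FBS against starved pcDNA cells (811 genes) the count was 61 with no replicate block, 66 with array quality weights, 85 with only the groups compared, 60 with the 2-fold minimum and 2917 with treatment by experiment terms (810 of the 811 among them). It was 3536 and 492 in experiments 1 and 2 alone and 1247 without both Rab25 FBS arrays, and leaving out 1 array gave 56 to 2085. Quantile normalization (952), median centring (812), another prior (848), the median of probe sets (643) and the lowest 40% of genes left out (1007) stayed within 1.5 times the count. The difference between experiments (2074) fell below that range with the 2-fold minimum alone (572).

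For FBS against EGF (192), IGF (225) and TGF beta (159) in turn, the counts were 14, 22 and 8 with no replicate block, 34, 57 and 20 with array weights, 41, 59 and 41 with the 2-fold minimum, and 2031, 2337 and 1856 with treatment by experiment terms. With only the groups compared, limma called 0 in each, with 555, 400 and 519 genes at an unadjusted p under 0.05. Without both Rab25 FBS arrays they were 338, 387 and 234. Leaving out 1 array gave 2 to 1525, 11 to 1826 and 11 to 1280. For the difference between lines (25), the count was 18 with no replicate block, 39 with quantile normalization, 40 with median centring, 11 with array weights, 3 with the lowest 40% of genes left out, 16 with the 2-fold minimum, 6 with only the groups compared and 349 with treatment by experiment terms, and 16 to 202 with 1 array left out.

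Of the 24 leading genes, 20 lost their call with no replicate block, 19 with only the groups compared, 18 without the FBS array of experiment 1 and 14 with array weights. With 1 FBS array in each experiment, the spread of the FBS response within an experiment was not measured. Apart from fewer arrays or genes in a fit, the cause of these changes was not tested. Genes near the signal of the rodent controls have limited precision.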
